A study of Rattus norvegicus with 96 samples.

Results

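The comparison of nicotine (NIC) with saline (SAL) in the nucleus accumbens (NAc) shell of female rats rests on 16 of the 96 libraries of the series, chosen by their labels for region, sex and treatment. Each library is the RNA of 1 rat, with 8 NIC rats (numbers 1 to 8) and 8 SAL rats (numbers 9 to 16). The rats were young adult F1 females of the inbred strains Fischer-344 and Brown Norway, from the initial and the reciprocal cross together, and the labels do not say which cross a rat came from. NIC rats received 0.4 mg/kg NIC (base) daily for 4 days and SAL rats received the vehicle, and tissue of both was taken on day 17 with no NIC challenge, so that the comparison asks what a short exposure left behind in the tissue rather than what NIC does acutely. The shell was dissected by hand and sequenced in bulk, and fewer cells of a type cannot be told apart from less RNA per cell.

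The NAc shell is the medial and ventral rim of the ventral striatum. Most of its neurons are GABAergic projection neurons that carry either dopamine D1 or dopamine D2 receptors and receive dopamine from the VTA, while sparse cholinergic interneurons set the local acetylcholine tone. NIC acts on nicotinic acetylcholine receptors, which are ion channels on dopamine terminals and interneurons, and repeated exposure is known for lasting changes of dopamine-dependent behaviour. The shell borders the septum and lies near the lateral ventricle. Cells of these, and of the hypothalamus and thalamus, have marker genes of their own.

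Libraries held 16222544 to 20625656 counts, with medians of 19002354 in NIC and 18332519 in SAL. Levels below are CPM (each gene's counts scaled to a fixed library total) with TMM scaling, errors on means are SD over the 8 rats of a group, and log2 fold changes are NIC over SAL with their SE. The dissected tissue carried the markers of the striatum, for which CPM were scaled over the libraries of all regions together and so differ slightly from those given below. Ppp1r1b (DARPP-32, the dopamine-regulated phosphatase inhibitor of projection neurons) lay at 538 to 1300 CPM in the 16 shell libraries against 79.4 to 170 CPM in VTA, and Th (the dopamine-synthesis enzyme of VTA neurons) at 1.16 to 3.74 CPM against a VTA median of 676 CPM. The shell also differed from the neighbouring core, with Calb1 (calbindin, low in shell) at 28.1 to 71.5 CPM against 89.1 to 172 CPM in female NAc core.

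The libraries of NIC rats 1, 2, 6 and 8 stood apart from the other 12. Slc17a6 (the vesicular glutamate transporter of thalamic and hypothalamic neurons) lay at 24 to 31.2 CPM in these 4, against 8.7 to 13.1 CPM in the other 4 NIC rats and 5.84 to 14.6 CPM in SAL. The 7 named hypothalamic and thalamic markers summed to 77.6 to 96.1 CPM in the 4 libraries, 36.7 to 44.3 CPM in the other NIC rats and 35.1 to 47.6 CPM in SAL. This sum is partly fixed by the choice of libraries and by the naming. It holds Slc17a6, by which the 4 were picked, and Avp and Trh, which have a symbol only through the study's table of this comparison. The 10 named pan-striatal projection markers summed to 2010 to 2980 CPM, 2950 to 3890 CPM and 3070 to 4070 CPM in the same order. Of these 10, 8 have a symbol only because the study's table of this comparison lists them as changed, and all 8 were lower in the fit used here. A low sum in NIC is therefore partly fixed by the naming. The part of this difference in the genes below was not tested. Results are also given without these 4 libraries, which were picked after the data were seen as those of highest Slc17a6, so that hypothalamic genes without them are a description only. A second division was by library prep batch, since NIC rats were prepared in batches G, H, I and J and SAL rats in J, K and L, and only J held both, with NIC rats 7 and 8 and SAL rats 9 and 10. Across the other batches prep and treatment cannot be told apart. NIC rat 8 is also 1 of the 4 libraries that stood apart, so that fits resting on batch J do not leave these out.

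**Figure D1:**
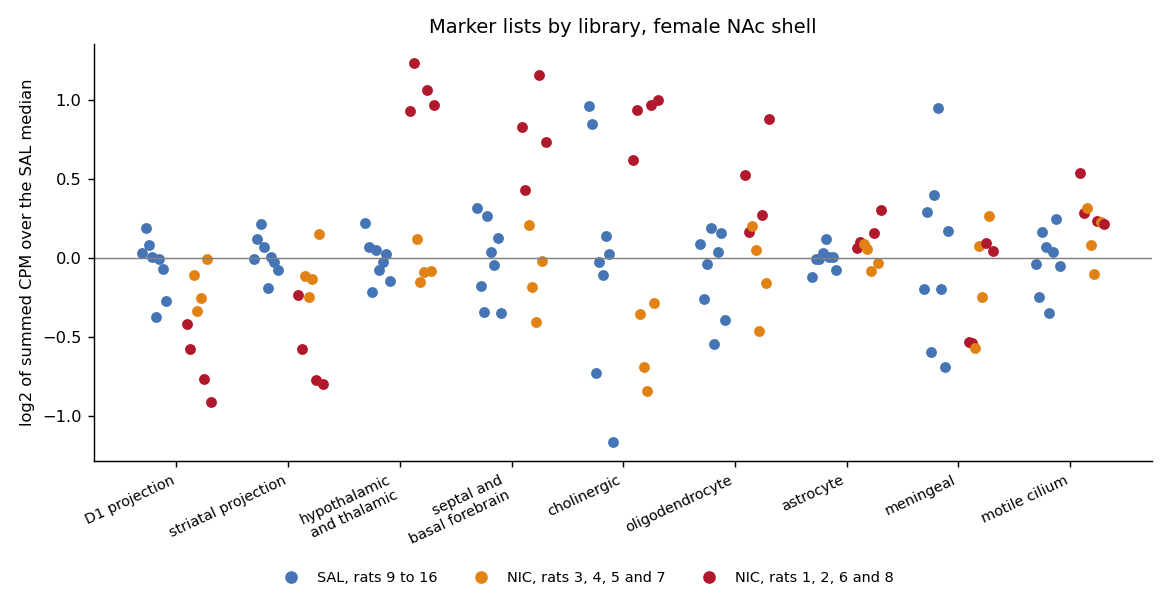
Summed CPM of each marker list in each library, as log2 over the median of the 8 SAL rats, with 1 point per rat for SAL, for NIC rats 1, 2, 6 and 8 and for the other NIC rats. The 4 NIC libraries are high for hypothalamic and thalamic markers (77.6 to 96.1 CPM). That list holds Slc17a6, by which the 4 were picked, and Avp and Trh, named through this comparison. The 4 are low for striatal projection markers (2010 to 2980 CPM, a list of which 8 of 10 members were named through this comparison). The other 4 NIC rats lie within or close to the SAL range on both lists (36.7 to 44.3 and 2950 to 3890 CPM).

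At an unadjusted p under 0.05, 1709 of 16879 tested genes (10.1%) differed between NIC and SAL, 886 higher in NIC (5.25%) and 823 lower (4.88%). The differences were small. The median size among these genes was 0.229 on the log2 scale, and 29 genes with a mean of at least 1 CPM differed by more than 1 on that scale. With Benjamini-Hochberg adjustment edgeR called 0 genes (lowest adjusted p 0.466), and DESeq2 called 9 (0.0591%) at an adjusted p under 0.05 and 1733 at an unadjusted one. In an exact two-sided permutation test over all 12870 assignments of the rats, 1553 genes (9.2%) had p under 0.05.

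Without NIC rats 1, 2, 6 and 8, 795 genes (4.71%, 2.39% higher and 2.32% lower) had an unadjusted p under 0.05, 1 of them (0.00592%) after adjustment by edgeR, and 254 of them were among the 1709, 253 in the same direction. These are 14.9% of the genes called with all libraries and 31.9% of those called without the 4. With prep batch as a covariate the count was 629 (3.73%, 2.53% higher and 1.2% lower), and 148 of these were among the 1709, which are 8.66% of the genes called with all libraries and 23.5% of those called with the covariate. Every statement below that a gene was higher or lower uses the unadjusted p of edgeR's quasi-likelihood test with all 16 libraries, unless another fit is named.

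The 12 genes of smallest p among those higher in NIC with a symbol and at least 1 CPM were led by Scml4. This gene, a relative of Polycomb proteins that hold genes silent, lay at 9.96, 11.8 and 14.4 CPM (lowest, median and highest) in NIC and at 6.61, 8.31 and 9.8 CPM in SAL. All 8 NIC rats were above all 8 SAL rats. Its log2 fold change was 0.47 with SE 0.10 (p = 9.18e-05, edgeR adjusted p = 0.466, exact permutation p = 0.000155, the smallest these groups allow). It was 0.39 without the 4 libraries and 0.77 with prep batch as a covariate.

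Aox1, an aldehyde oxidase that oxidizes aldehydes and the nicotine iminium ion on the way to cotinine, lay at 212, 369 and 563 CPM in NIC and 194, 217 and 249 CPM in SAL. NIC values were widely spread, with 6 rats above every SAL rat and the other 2 within the SAL range. The mean was 383 ± 133 CPM in NIC and 219 ± 19.7 CPM in SAL, and the log2 fold change was 0.81 with SE 0.17 (p = 0.000116, exact p = 0.00233). The difference was 0.75 without the 4 libraries and 0.57 with prep batch as a covariate. Of the 11 named genes of xenobiotic and aldehyde metabolism, Aox1 alone was higher, and Aldh1a3, which makes retinoic acid, was lower (log2 fold change -0.51, exact p = 0.0923), shares close to the 5.81% and 5.73% of all genes named through other tables.

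Gfra2, the co-receptor for the growth factor neurturin, lay at 28, 44.1 and 68.1 CPM in NIC and at 28, 31.2 and 34.8 CPM in SAL. The highest values belonged to the 4 libraries that stood apart, and the log2 fold change of 0.56 (SE 0.13) was 0.23 without them and 0.18, not passing, with prep batch as a covariate. Rab3c, a small GTPase of synaptic vesicles, lay at 4.21, 5.05 and 5.54 CPM in NIC and 3.05, 3.51 and 4.77 CPM in SAL, and its log2 fold change of 0.47 (SE 0.11) was 0.46 without the 4 and 0.24 with prep batch as a covariate, where it did not pass. Hebp2, a heme-binding protein, differed by 0.78 (SE 0.17), with 7 NIC rats above every SAL rat, by 0.42 without the 4 and by 0.63, not passing, with the covariate. Terf2ip, a subunit of the telomere-capping shelterin complex, and Ube2v2, a ubiquitin-conjugating enzyme variant, were higher by 0.25 and 0.18 on the log2 scale, and at 0.24 and 0.0943 with the covariate, neither passing. Rnf152, a lysosomal ubiquitin ligase, and Tmem215 were low in level, with means of 3.66 ± 0.751 and 4.66 ± 2.51 CPM in NIC. Rnf152 differed by 0.60, and by 0.13 with the covariate, where it did not pass. Tmem215 followed the 4 libraries, which held 5.44 to 8.2 CPM against 1.74 to 2.9 CPM in SAL, and its log2 fold change of 1.09 was 0.19 without them. The rest of the 12 were Avp, described with the hypothalamic genes, and the cilium genes Rsph9 and Ttc21a.

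**Figure D2:**
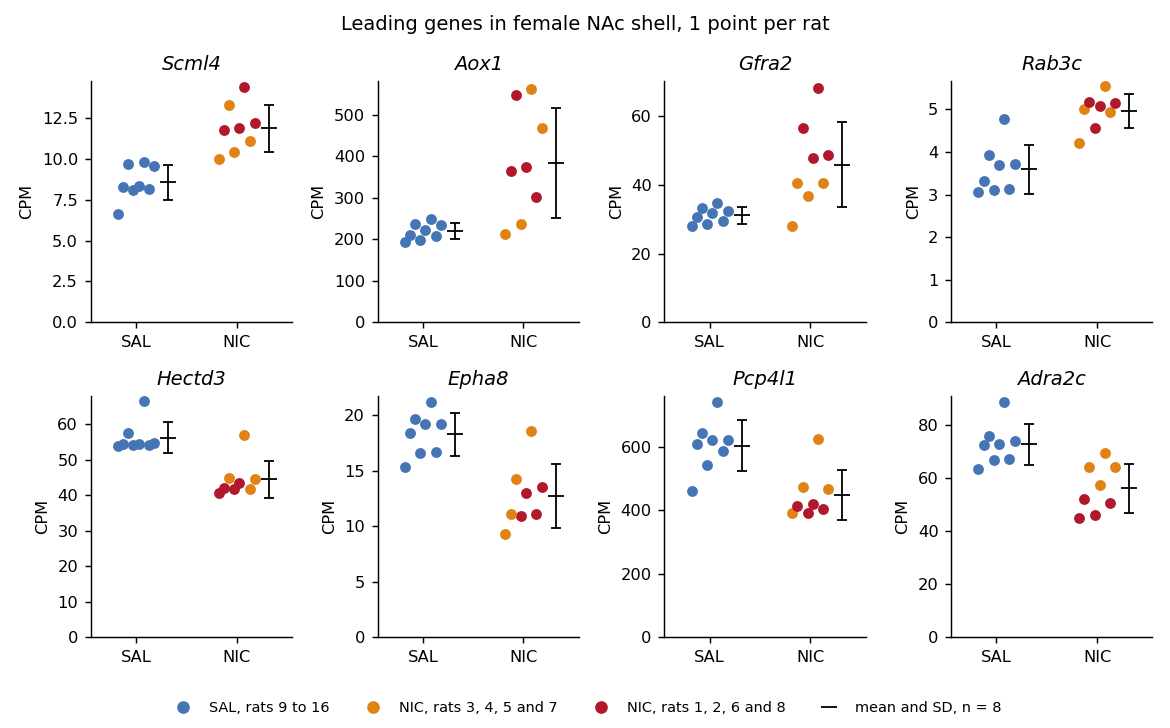
CPM of 8 leading genes in each of the 16 libraries, with SAL and NIC rats in separate columns, NIC rats 1, 2, 6 and 8 marked, and the mean and SD of each group of 8. Scml4 is the gene whose groups do not overlap, and Hectd3, Epha8, Pcp4l1 and Adra2c lie lower in most NIC rats.

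Genes lower in NIC were led by Hectd3, a ubiquitin ligase. It lay at 40.7, 42.7 and 56.9 CPM in NIC and at 53.8, 54.4 and 66.6 CPM in SAL. NIC rat 7 was the highest of its group at 56.9 CPM, and the other 7 NIC rats were below every SAL rat. The log2 fold change was -0.34 with SE 0.07 (p = 6.36e-05, edgeR adjusted p = 0.466, exact p = 0.00109), and it was -0.26 without the 4 libraries and -0.27 with prep batch as a covariate. Epha8, an ephrin receptor of axon guidance, lay at 9.34, 12.1 and 18.6 CPM in NIC and 15.3, 18.8 and 21.1 CPM in SAL, again with 7 NIC rats below all SAL rats. Its log2 fold change was -0.52 (SE 0.11), -0.46 without the 4 and -0.22 with prep batch as a covariate, where it did not pass.

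Pcp4l1, a calmodulin-binding protein related to the striatal gene Pcp4, was the most abundant of these genes, at 392, 416 and 624 CPM in NIC and 461, 615 and 742 CPM in SAL (log2 fold change -0.43, SE 0.10, exact p = 0.00342). The groups overlapped through NIC rat 7 and the lowest SAL rat, and the difference was -0.30 without the 4 libraries. Without NIC rat 7, edgeR's quasi-likelihood test called Hectd3, Pcp4l1 and Epha8 at an adjusted p under 0.05 (0.0054, 0.0234 and 0.0234). Tac3 (the precursor of neurokinin B, a tachykinin peptide) lay at 37.4 ± 3.91 CPM in NIC and 46.6 ± 5.42 CPM in SAL, which is -0.32 on the log2 scale (SE 0.08). C4bpb, a subunit of the complement inhibitor C4-binding protein, lay at 1.72, 2.19 and 2.56 CPM in NIC and 2.36, 3.03 and 4.26 CPM in SAL, with 7 NIC rats below all SAL rats.

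Jph4, a junctophilin that joins the plasma membrane to the endoplasmic reticulum in neurons, was lower by 0.24 on the log2 scale, and Kif7, a kinesin of Hedgehog signalling in primary cilia, by 0.38. The remaining genes of the 12 were Prss53, Faap100 (of the Fanconi anaemia DNA repair pathway), the kinase Tec, Wdr86 and Adra2c. Of the 12 lower genes, 11 kept an unadjusted p under 0.05 without NIC rats 1, 2, 6 and 8 (Tec did not), and of the 12 higher genes 8 did (the others were Terf2ip, Ttc21a, Tmem215 and Avp). With prep batch as a covariate 4 of the 12 higher genes (Scml4, Aox1, Ttc21a and Avp) and 4 of the 12 lower genes (Hectd3, Pcp4l1, Adra2c and Wdr86) did. Among all 16879 genes, 4 had groups that did not overlap (0.0237%). Besides Scml4 these were Lime1 (an adaptor of lymphocyte signalling, log2 fold change -0.20), Maz (a zinc finger transcription factor, -0.13), both lower in NIC, and LOC102546648, which was higher (0.15), all of them named after their values were seen.

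**Figure D3:**
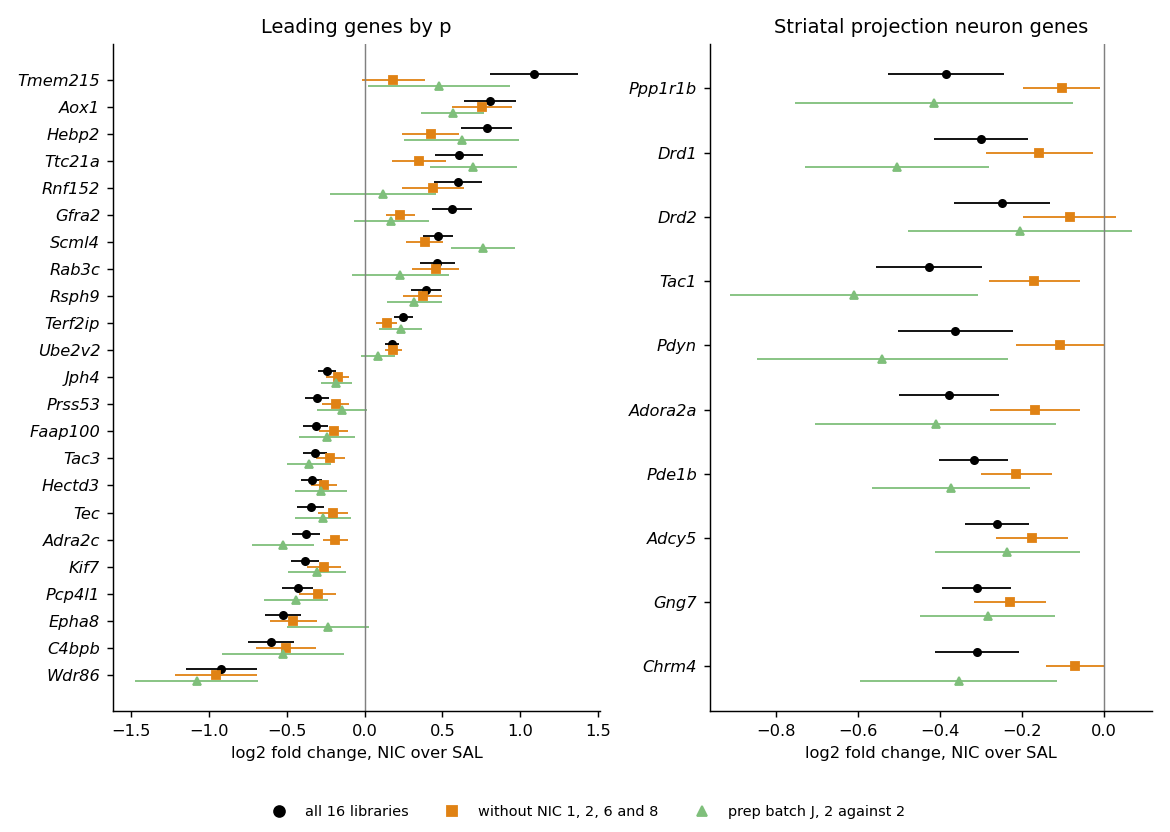
Log2 fold change of NIC over SAL with its SE for 23 leading genes (left) and 10 striatal projection neuron genes (right), with all 16 libraries, without NIC rats 1, 2, 6 and 8, and within prep batch J. Leading genes such as Scml4, Aox1 and Wdr86 keep most of their size without the 4 libraries, while Tmem215 and the striatal genes are nearer to 0 without them. Within batch J the striatal genes are not nearer to 0, with wide SE, and 1 of its 2 NIC libraries (rat 8) is 1 of the 4.

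Genes with the greatest differences were of low level. Wdr86 lay at 0.7, 1.39 and 2.25 CPM in NIC and 1.59, 2.65 and 3.75 CPM in SAL. The difference of -0.92 on the log2 scale (SE 0.23, exact p = 0.00155) was -0.95 without the 4 libraries and -1.07 with prep batch as a covariate. Tbx6, a T-box transcription factor, differed by -0.73 (SE 0.22), and Six2, a homeobox factor, by -0.90 (SE 0.41). Asb4, of hypothalamic neurons among other cells, lay at 7.78 to 10.3 CPM in the 4 NIC libraries and at 0.849 to 1.84 CPM in the other 4 NIC rats, so that its log2 fold change of 1.33 turned to -0.43 without them.

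Several striatal projection neuron genes were lower in NIC. Most of them have a symbol here only through the study's table of changed genes for this comparison, which fixes that they differ, so their values describe the genes and their number says nothing of the class. Among the 4 D1 markers named through other tables, 3 were lower and 0 higher (median -0.339), where 11.5% of all 7142 genes so named differed, 5.81% higher and 5.73% lower. Of 2 such pan-striatal markers 1 was lower, and neither the 1 such D2 marker (Adk, adenosine kinase, -0.00775) nor the 1 such dopamine signalling gene (Gnal, the G protein subunit of striatal neurons, -0.15, and -0.23 with an unadjusted p under 0.05 without the 4 libraries) passed. Without the 4 libraries 0 of the 4 D1 markers passed and their median was -0.155, and with prep batch as a covariate 2 were lower with a median of -0.532. The fit with the covariate rests on batch J. There the 7 D1 markers with a symbol summed to 923.6 CPM in NIC rat 7 and to 492 CPM in NIC rat 8, 1 of the 4 libraries. SAL rats 9 and 10 held 948 and 1061 CPM. Ppp1r1b, named through this comparison, lay at 550, 909 and 1240 CPM in NIC and 933, 1140 and 1310 CPM in SAL. The 4 NIC libraries that stood apart held 550 to 921 CPM and the other NIC rats 896 to 1240 CPM, nearly the SAL range. Its log2 fold change was -0.38 (SE 0.14, exact p = 0.0173), and -0.10 without the 4. Drd1, the dopamine D1 receptor, lay at 80.5 ± 12.2 CPM in NIC and 99 ± 19.3 CPM in SAL (log2 fold change -0.30, SE 0.11), with 3 NIC rats below all SAL rats. The peptide precursors of the same neurons were lower too, Tac1 (substance P) by 0.43 (SE 0.13, exact p = 0.00995) and Pdyn (dynorphin) by 0.36 (SE 0.14). Chrm4, the muscarinic M4 receptor that opposes D1 signalling, differed by -0.31 and was at -0.07 without the 4 libraries.

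The D2 class genes Adora2a and Drd2 and the receptor gene Drd3 were all named through this comparison. Adora2a, the adenosine receptor of these neurons, lay at 125, 177 and 253 CPM in NIC and 189, 225 and 278 CPM in SAL, with 5 NIC rats below all SAL rats (log2 fold change -0.38, SE 0.12). Drd2, the dopamine D2 receptor, lay at 111 ± 25.8 CPM in NIC and 132 ± 16.3 CPM in SAL and differed by -0.25 (SE 0.12), with an exact permutation p of 0.0619. Drd2 lay at 80.1 to 126 CPM in the 4 libraries that stood apart and at 99.5 to 160 CPM in the other NIC rats. Drd3, the D3 receptor of the ventral striatum, was near 1 CPM, at 0.863 ± 0.246 CPM in NIC and 1.33 ± 0.297 CPM in SAL (log2 fold change -0.63, SE 0.23). Without the 4 libraries Adora2a, Drd2 and Drd3 were at -0.17, -0.08 and -0.44, and 0 of the 3 passed.

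Downstream of the receptors, and again named through this comparison, Gng7 and Adcy5, the G protein subunit and adenylyl cyclase that couple dopamine and adenosine receptors to cAMP, were lower by 0.31 and 0.26. The phosphodiesterases Pde1b and Pde10a, which break cAMP and cGMP down, were lower by 0.32 and 0.44. Gng7 and Pde1b kept an unadjusted p under 0.05 without the 4 libraries, at -0.23 and -0.21.

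Several markers of hypothalamic and thalamic neurons went the other way. Avp, the precursor of vasopressin made by hypothalamic neurons, lay at 3.67 to 13.6 CPM in NIC rats 1, 2, 6 and 8 and at 0.0517 to 0.227 CPM in the other 4, against 0 to 1.12 CPM in SAL. Its log2 fold change of 3.75 (SE 0.99, exact p = 0.0615) was -1.06 without the 4 libraries. Slc17a6 differed by 1.00 (SE 0.27) and was at 0.13 without them. Hcrt (orexin, of the lateral hypothalamus) was near 1 CPM, at 1.22 ± 0.979 CPM in NIC and 0.431 ± 0.378 CPM in SAL (log2 fold change 1.49, SE 0.59, exact p = 0.0396). Of the 5 hypothalamic and thalamic markers named through other tables, 3 were higher and 0 lower with a median of 0.214, and without the 4 libraries 0 passed in either direction, where 2.38% of the genes named through other tables were higher and 2.48% lower.

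Septal markers were high in the same 4 rats. Of the 4 that other tables name, 2 were higher, Crhr2 and Zic4, and 2 did not pass, against 5.81% higher among all genes so named. Crhr2, a receptor for corticotropin-releasing factor and urocortins that is abundant in the lateral septum, lay at 23.4 to 48.9 CPM there, at 9.4 to 16.4 CPM in the other NIC rats and at 9.5 to 17.1 CPM in SAL. Trpc4, a cation channel of lateral septal neurons named through this comparison, and Zic4, a septal transcription factor, differed by 0.61 and 0.47 over all rats, and by 0.19 and 0.03 without the 4. Of the 3 named markers proposed for the medial shell, Calcr and Dlk1 were high in the same libraries and Drd3 was lower in NIC. Calcr, the calcitonin receptor, lay at 30.1 to 36.9 CPM in the 4 libraries against 2.33 to 18.2 CPM in SAL, and Dlk1 at 10.5 to 15.6 against 2.04 to 7.86 CPM. Cholinergic markers summed to 80.3 to 105 CPM in the 4 and to 29.1 to 42.7 CPM in the other NIC rats, while SAL ranged from 23.2 to 102 CPM, and 0 of the 3 passed with all libraries, while 2 of the 3 were lower without the 4 (median -0.675), against 2.48% of all genes named through other tables. Since the 4 hold the high NIC sums, that count is a description of the libraries that remain.

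Among nicotinic receptor subunits, 4 of 13 listed genes had a symbol here. Chrnb2, the beta2 subunit of the high-affinity receptors, lay at 15 ± 3.25 CPM in NIC and 15.1 ± 3.31 CPM in SAL (log2 fold change -0.01, SE 0.14), a difference smaller than the spread between rats. Chrna1, the muscle-type subunit, was at 4.64 ± 0.775 and 4.75 ± 0.819 CPM. Chrnb4, a subunit of ganglionic and habenular receptors, was higher by 1.16 (SE 0.45), but at 1.05 ± 0.746 CPM in NIC and 0.467 ± 0.291 CPM in SAL, and it was at 0.13 without the 4 libraries. Chrna3, its usual partner, lay at 1.16 ± 0.289 and 0.79 ± 0.427 CPM with a log2 fold change of 0.55 (SE 0.29), which did not pass in edgeR, while its exact permutation p was 0.0337.

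Of the adrenergic and serotonin receptor genes with a name from elsewhere, 1 of 8 was lower and 0 higher, against 5.73% and 5.81% of all genes so named. Adra2c and Adra1b were named through this comparison. Adra2c, the alpha-2C receptor that is dense on striatal projection neurons, lay at 45.2, 54.7 and 69.6 CPM in NIC and 63.4, 72.8 and 89 CPM in SAL, with 5 NIC rats below all SAL rats. Its log2 fold change of -0.37 (SE 0.09, exact p = 0.00171) was -0.19 without the 4 libraries and -0.51 with prep batch as a covariate, both at an unadjusted p under 0.05. Adra1b was higher by 0.35 over all rats and at -0.29 with prep batch as a covariate. Adra2a, Adra2b and Adra1d did not pass, at log2 fold changes of 0.25 (SE 0.12), -0.25 (SE 0.18) and 0.23 (SE 0.57). The opioid receptors with a symbol, Oprl1 (the nociceptin receptor) at 27.4 ± 5.32 CPM in NIC and 25.2 ± 2.49 CPM in SAL and Oprm1 (the mu receptor) at 0.353 ± 0.161 and 0.33 ± 0.164 CPM, differed by less than the spread between rats.

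Of the 9 opioid and neuropeptide genes named through other tables, 3 were lower and 0 higher, namely Tac1, Pdyn and Cartpt, against 5.73% and 5.81% of all genes so named, and without the 4 libraries 1 of the 9 was lower. Cartpt, the precursor of the CART peptides of accumbens projection neurons, lay at 66.5, 87.1 and 128 CPM in NIC and 93.1, 127 and 148 CPM in SAL, with 5 NIC rats below all SAL rats (log2 fold change -0.35, SE 0.13). It was at -0.11 without the 4 libraries. Pnoc (nociceptin) and Crh (corticotropin-releasing hormone), both named through the table of this comparison, were higher by 0.57 and 0.52. Pnoc was at 0.06 and Crh at 0.31 without the 4 libraries, neither passing.

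Genes of motile cilia, which beat on the ependymal cells that line the ventricles, included 14 that were higher in NIC. The group was formed by symbol (Cfap, Rsph, Tekt, Dnah and Dnai, for cilia-associated proteins, radial spoke heads, tektins and dynein chains) after the values were seen, so that its counts describe these libraries only. Of 31 members named through other tables, 14 were higher and 0 lower with a median log2 fold change of 0.396, where 5.81% and 5.73% of all genes so named were higher and lower. Tekt1, a filament protein of the axoneme, lay at 7.69, 10.3 and 12.5 CPM in NIC and 5.61, 7.55 and 9.8 CPM in SAL, with 6 NIC rats above all SAL rats (log2 fold change 0.42, SE 0.11, exact p = 0.00218). Rsph9, of the radial spoke head, lay at 17.2 ± 1.72 CPM in NIC and 13.1 ± 2.27 CPM in SAL (0.40, SE 0.10).

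Rsph1 (0.55, SE 0.15) belongs to the same spoke head, and Dnai1 (0.56, SE 0.17) and Dnah9 (0.38, SE 0.12) to the outer dynein arm. Cfap57 was at 2.91 ± 0.911 CPM in NIC and 1.46 ± 0.715 CPM in SAL. Ttc21a, an intraflagellar transport protein outside the symbol group, lay at 8.08, 10.9 and 15.9 CPM in NIC and 4.96, 8.38 and 9.74 CPM in SAL, with 7 NIC rats above all SAL rats (0.61, SE 0.16). Without the 4 libraries, 29 of the 31 members had a positive fold change and the median was 0.285, while 2 members passed, all higher, against 2.38% higher and 2.48% lower of all genes so named. With prep batch as a covariate 13 were higher and 0 lower, with a median of 0.653. Of all tested genes, with and without a symbol, 2.53% were higher and 1.2% lower, which is no matching background for members named through tables of changed genes. This fit rests on NIC rats 7 and 8 against SAL rats 9 and 10, whose cilium sums were 397 and 344 CPM. Summed over the 34 members with a symbol, the level was 475 to 595 CPM in the 4 libraries, 380 to 509 CPM in the other NIC rats and 320 to 486 CPM in SAL. The 4 ependymal markers with a symbol, 1 of which is in the cilium group, summed to 48.5 to 80.9, 31.5 to 60.6 and 20.9 to 57.7 CPM. The part of ependymal tissue in the dissections was not tested.

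As background, RFX factors bind the X-box, which holds the half-site GTTGCC, upstream of many cilium genes, and upstream sequences are shown so that this motif can be seen in members of the group. The 250 bases before the start of transcription were read from RefSeq (build GRCr8), which held 27 of the 31 members. The letters GTTGCC, on either strand and thus also as GGCAAC, occurred in 6 of the 27 (22.2%) and in 9.9% of all 27457 promoters of the same length. A match describes the letters and is not a binding site. Of the 6, Cfap44, Dnah2 and Cfap74 did not pass in the comparison of NIC with SAL (log2 fold changes 0.80, 0.18 and -0.19) and are not printed. The sequences of the 3 that were higher in NIC are Tekt1 (chr10:57479122-57479371, minus strand), Dnai2 (chr10:100258772-100259021, plus strand) and Cfap298 (chr11:43677383-43677632, minus strand), written 5′ to 3′ on the strand of the gene with the matches in capitals. The match of Tekt1 begins 39 bases before the start of the gene and that of Dnai2 55 bases before it. Cfap298, with 4 matches, differed by 0.11 on the log2 scale and Dnai2 by 0.79.
Tekt1: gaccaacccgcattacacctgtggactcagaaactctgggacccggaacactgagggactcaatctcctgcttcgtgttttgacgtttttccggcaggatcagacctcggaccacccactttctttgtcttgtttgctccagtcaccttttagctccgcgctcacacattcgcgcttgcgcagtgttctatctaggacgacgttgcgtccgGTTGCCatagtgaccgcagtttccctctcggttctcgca
Dnai2: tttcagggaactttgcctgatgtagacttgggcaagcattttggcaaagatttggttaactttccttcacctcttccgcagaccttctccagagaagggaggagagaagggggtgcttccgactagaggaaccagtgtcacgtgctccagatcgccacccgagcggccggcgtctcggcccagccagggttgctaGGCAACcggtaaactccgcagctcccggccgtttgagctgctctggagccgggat
Cfap298: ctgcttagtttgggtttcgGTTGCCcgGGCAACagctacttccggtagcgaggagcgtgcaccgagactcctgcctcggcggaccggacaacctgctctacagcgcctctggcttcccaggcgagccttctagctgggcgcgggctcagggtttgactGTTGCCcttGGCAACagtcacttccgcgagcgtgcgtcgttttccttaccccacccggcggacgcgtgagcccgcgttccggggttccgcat

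The same genes were also read in female NAc core and male NAc shell. In the NAc core of the same females (7 NIC and 8 SAL libraries) the median of the 31 members was -0.32, with 1 higher and 7 lower. Of all genes 6.45% differed there, but the members have symbols through tables that include core and male shell, so that this share is no matching background for them. By sign, 23 of the 31 were positive in shell and negative in core. In male NAc shell the median was -0.228, with 0 higher and 1 lower, and the 2.46% of all genes that differed there has the same limit. Since the members were chosen on the female shell values, the difference from core and from males was not tested on them.

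**Figure D4:**
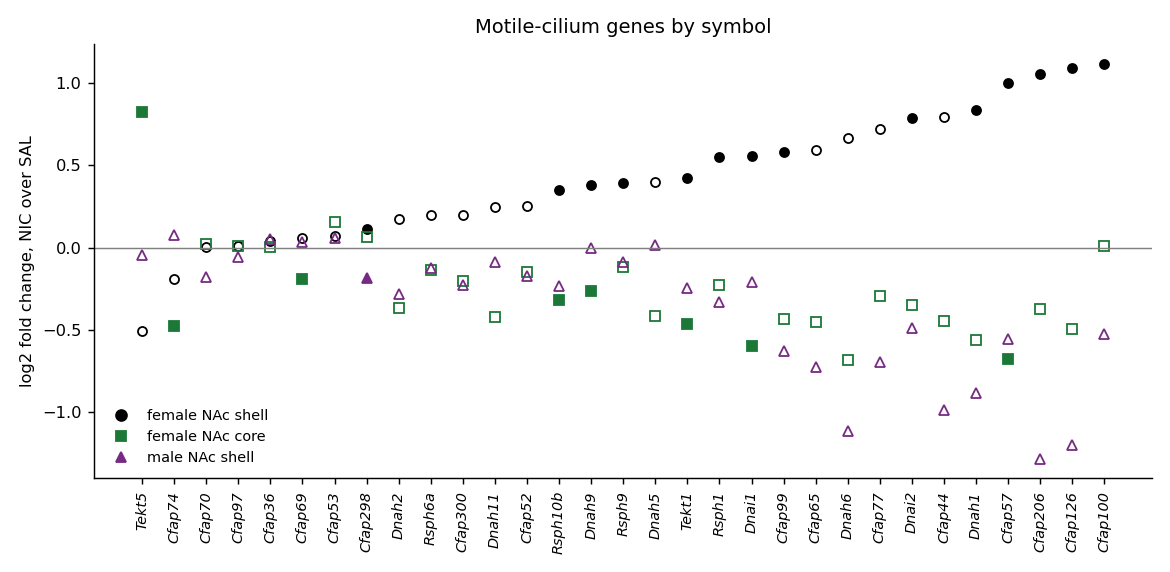
Log2 fold change of NIC over SAL for each of the 31 cilium genes named through other tables, in female NAc shell, female NAc core and male NAc shell, with filled symbols for an unadjusted p under 0.05. Most genes lie above 0 in female shell (median 0.396) and below 0 in female core (median -0.32) and male shell (median -0.228).

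Synaptic lists were read against the shares of all genes named through other tables, of which 5.81% were higher and 5.73% lower. Of 22 voltage-gated channel genes, 2 were higher and 4 lower (median -0.0621). Cacna1h, a low-voltage-activated T-type calcium channel named through the table of this comparison, lay at 185, 212 and 299 CPM in NIC and 243, 260 and 316 CPM in SAL, with 7 NIC rats below all SAL rats (log2 fold change -0.30, SE 0.09), and was at -0.13 without the 4 libraries. Of 8 GABA receptor genes 2 were higher and 1 lower, the last being Gabra4, an alpha subunit of the GABA-A receptor, at -0.24. Of 16 glutamate receptor genes 1 was higher and 0 lower. In the postsynaptic scaffold 1 of 12 was lower. Camk2a and Camk2b, subunits of CaM kinase II, were named through this comparison, with Camk2a at 91.2 ± 16.9 and 113 ± 19 CPM (-0.31) and Camk2b at 953 ± 130 and 1089 ± 34.5 CPM (-0.19) in NIC and SAL. Without the 4 libraries Camk2a and Camk2b were at -0.14 and -0.03, neither passing. Of 19 genes of transmitter release 2 were higher and 0 lower, Rab3c and Syt4, which was at 0.13 and turned to -0.12 with prep batch as a covariate.

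Of 12 cholesterol synthesis genes 4 were higher and 0 lower (median 0.128), against 5.81% higher among all genes named through other tables, and with prep batch as a covariate 0 of 12 passed (median 0.0685). Sqle, the squalene epoxidase, lay at 35.7, 51.7 and 57.9 CPM in NIC and 38.9, 40.9 and 46.5 CPM in SAL, with 6 NIC rats above all SAL rats and 1 below them (0.25, SE 0.08). Insig1, a sterol sensor, and Cyp51, a demethylase of the pathway, differed by 0.20 and 0.13. Hsd17b7, named through this comparison, differed by 0.30 and by 0.41 without the 4 libraries, where 0 of the 12 passed. Of 8 oligodendrocyte markers 2 were higher, 0 were lower and 6 did not pass (median 0.3), against the same 5.81%. The 2 were Mag (myelin-associated glycoprotein) and Ugt8 (the galactosylceramide enzyme), at 0.30 and 0.36, with exact permutation p of 0.0981 and 0.102. The median was 0.182 without NIC rat 8, the library of highest sum, and -0.00199 without the 4 libraries, and the 9 markers with a symbol summed to 12900 to 21200 CPM in the 4 and 7850 to 13100 CPM in SAL.

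Markers of other cell types mostly did not pass. Among astrocyte, endothelial, mural, meningeal fibroblast and GABA interneuron markers (7, 9, 5, 9 and 5 members) 0 had an unadjusted p under 0.05, with medians of 0.0262, -0.0683, -0.109, -0.253 and -0.0212. Without SAL rat 13 the endothelial, mural and meningeal medians were -0.0168, -0.0205 and -0.0989. Of 7 microglial markers 1 was higher, and of 10 choroid plexus markers 1, against 5.81% of all genes named through other tables. The choroid plexus median of 0.301 ran from 0.0973 (without NIC rat 1) to 0.478 (without SAL rat 9) when 1 library was left out, and was -0.338 without the 4. Meningeal markers summed to 1170 CPM in SAL rat 13, the highest library, against 373 to 794 CPM in the other SAL rats. Of 44 respiratory chain genes 2 were higher and 0 lower, and of 30 cytosolic ribosomal protein genes 0 were higher and 2 lower. Of all genes named through other tables, 5.81% were higher and 5.73% lower. With prep batch as a covariate 9 of the 44 respiratory chain genes were lower and 0 higher. Of all tested genes 1.2% were lower and 2.53% higher in that fit, which is no matching background for genes named through tables of changed genes. Histone modifiers and matrix genes were read against 11.5% of all genes named through other tables that differed. Of 28 histone and DNA modifiers 4 were lower and 0 higher, including the demethylase Kdm4a (-0.15) and the methyltransferase Kmt2b (-0.14). Of 52 collagen, laminin and integrin genes 1 was higher and 5 lower, the same share as among all those genes, with the laminin subunit Lamc1 at -0.28 (SE 0.08).

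Of 8 immediate early genes, which report recent neuronal activity, 1 was higher, Jun, at 75.4 ± 11.2 CPM in NIC and 66.5 ± 6.38 CPM in SAL (log2 fold change 0.18), against 5.81% higher among all genes named through other tables. Without the 4 libraries, 4 of the 8 were higher, where 2.38% of the genes named through other tables were higher and 4.86% differed in either direction. They were Jun (0.32), Nr4a2 (0.71), Dusp6 (0.35) and Ier5 (0.50), named after their values were seen. The median of the list was 0.077 with all libraries, ran from -0.0027 (without NIC rat 5) to 0.105 (without NIC rat 1) when 1 library was left out, and was 0.255 without the 4.

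Over all genes, the interaction of sex with treatment in NAc shell was tested on 32 libraries and that of region with treatment on 31 libraries of females. Male shell libraries came from prep batches A, B, C, D and L and female ones from G to L, so that the first interaction cannot tell sex from prep batch. For sex edgeR called 0 genes at an adjusted p under 0.05 and 1362 (8.07%) at an unadjusted one, and DESeq2 called 2 after adjustment, identifiers without symbol that were at 0 in 10 and 13 of the 16 female shell libraries. The genes of smallest p were Lamc1, Fam20b and Ttr. Lamc1 was lower in NIC females (-0.28) and at 0.21 in males, a difference of -0.50 (edgeR adjusted p = 0.579). Fam20b, a kinase of proteoglycan synthesis, was at 0.21 in females and -0.12 in males (difference 0.33). Ttr, the transthyretin of choroid plexus, rested on uneven levels, with 45.7 ± 126 CPM in male SAL rats and 0.885 ± 0.551 CPM in male NIC rats. Scml4 was at 0.47 in females and at -0.0018 in males, a difference of 0.47 (edgeR adjusted p = 0.579).

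For region, edgeR called 0 genes after adjustment and 846 (5.01%) before it, and DESeq2 called 5 after adjustment. The genes of smallest p were Dnai1, Dlx1 and Tspan11, all of them higher in NIC shell and lower in NIC core. Dlx1, a homeobox factor of GABAergic neurons, lay at 49.4 ± 9.6 CPM in NIC and 34.5 ± 7.61 CPM in SAL in shell and at 24 ± 3.59 and 29.9 ± 2.88 CPM in core, a difference of 0.83 between the log2 fold changes (edgeR adjusted p = 0.374). Within shell its log2 fold change was 0.52, and 0.39 without the 4 NIC libraries. Tspan11 differed by 0.88 and Dnai1 by 1.15 between the regions. DESeq2's adjusted p for the differences was 0.0091, 0.0291 and 0.00514 for Dlx1, Tspan11 and Dnai1.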

How the data were processed

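RNA-seq libraries (paired-end) were quantified by the authors with fastp 0.20.0 and Salmon 0.12.0 on Rnor 6 and collapsed to genes with tximport. The authors deposited estimated counts per gene as whole numbers, not normalized, for 17637 genes and 96 libraries. How the estimates became whole numbers is not given in the sources used here. Groups came from the labels.

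Testing used edgeR 4.0.16 under R 4.3.3 (TMM, quasi-likelihood fit and test, 8 NIC against 8 SAL, no covariate) and, as an alternative, DESeq2 1.42.0. A gene was tested where its size-factor-normalized count exceeded 10 in 3 or more of 94 libraries, which left 16879. The 94 libraries leave out female NAc core NIC 1, which the study's display of libraries does not show, and a repeat of a male VTA rat. Exact permutation tests were two-sided on log2 CPM with a prior count of 2 (Python 3.11.15). Interactions of treatment with sex and with region were fitted on 32 and 31 libraries. The test was tested on simulated counts of 8 against 8 (16879 genes, 200 changed), where it recovered 76% of genes changed by 0.5 on the log2 scale at an unadjusted and 44% at an adjusted p under 0.05, beside 821 unchanged genes at an unadjusted and 10 at an adjusted p under 0.05 in the whole simulation. Counting error is small at these totals except for genes under 1 CPM, and pairs of replicates differed by 7.78 to 47.3 times sampling noise, so none is a copy of another.

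The labels give no litter or cage, so that p-values measure the spread between these rats. Symbols and chromosomes came from the study's tables of changed genes, used for names only, and covered 7964 identifiers. Since those tables include this comparison, list counts use the 7142 tested genes named through another table, and members named through this comparison alone are counted apart. The columns of fold changes and p-values in them were not used.

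Named genes were the 12 of smallest p in each direction with a symbol and at least 1 CPM, the 3 greatest differences in each direction, up to 5 members of each list with p under 0.05, the receptor genes, and the 3 genes of smallest p in each interaction. Some genes that the rule names are not reported here. Members and lists were chosen with earlier results of these data known. The alternatives were DESeq2's size factors and test, 3 other count filters, prep batch as a covariate or batch J alone, all 12 groups in 1 fit, and each library left out. Libraries of NAc core and shell with 1 number come from 1 rat by their titles. The correlation of their deviations had a median of 0.166 over 15 rats, above 0.1 in 9, against 0.00676 for other rats.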

Additional observations from a re-analysis of the deposited data

Results flagged for a closer look

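Among the 102 genes given with values, the groups of 8 rats were searched for a library far from its group, by the ratio of its gap to the range of the group on the log2 scale, against Dixon's critical value for 8. Chance alone flags about 1 in 20 groups, 10.2 of 204 here, and 9 were found. Hectd3 was far from its group in both treatments, at 56.9 CPM in NIC rat 7 and 66.6 CPM in SAL rat 10. NIC rat 7 was also the highest of its group for Pcp4l1, at 624 CPM. SAL rat 16 was the highest SAL rat for Rsph9, at 18.4 CPM, and for Maz, at 79.3 CPM. Rsph1 was lowest in NIC rat 5, at 5.74 CPM, and Tac3 lowest in SAL rat 13, at 35.2 CPM, which is also the library of highest meningeal sum. Aldh1a3 was lowest in NIC rat 2, at 1.08 CPM, and LOC102546648 highest in NIC rat 3, at 17.3 CPM. Neither interaction passed an adjusted p under 0.05 in edgeR for any of these 102 genes.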

How the results depend on the processing

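The count of 1709 genes at an unadjusted p under 0.05 was 483 in prep batch J alone, 629 with prep batch as a covariate and 795 without the 4 NIC libraries, and between 1192 (without NIC rat 6) and 2503 (without NIC rat 7) when 1 library was left out. It stayed between 1387 and 1756 under the other alternatives. At an adjusted p under 0.05 the count of 0 became 9 with DESeq2's test, 2 with all 12 groups in 1 fit (Avp and an identifier without symbol), 1 without the 4 libraries and 0 to 3 when 1 library was left out. DESeq2 called 2 genes for the sex and 5 for the region interaction, both 0 in edgeR. For the region interaction the pairing of core and shell by rat (replicate block) gave 845 genes against 846 and changed no adjusted call. For NIC against SAL no paired fit was possible, since NIC and SAL rats share no numbers. Without the 4 libraries 50 of the 102 genes (65 with prep batch as a covariate and 67 in batch J alone) kept their direction and lost an unadjusted p under 0.05, and 9 log2 fold changes turned, to -1.06 for Avp, -0.43 for Asb4, -0.00099 for Calcr, -0.16 for Dlk1, -0.12 for Crhr2, -0.28 for Trh, 0.0671 for Adk, 0.0289 for Cfap74 and -0.13 for Oprl1, as did the medians of the cholinergic (-0.675), septal (-0.152), choroid plexus (-0.338) and GABA receptor (-0.0417) lists. With prep batch as a covariate, or in batch J alone, signs turned for Adra1b (-0.29 and -0.30), Syt4 (-0.118 and -0.127), Adk (0.0264 and 0.0172), Cfap74 (0.193 and 0.182), Lamc1 (0.0306 and 0.0212), Chrna1 (0.0224 and 0.0137) and Oprl1 (-0.0203 and -0.0284), and for the medians of mural (0.14 and 0.131), GABA receptor (-0.0474 and -0.0566), transmitter release (-0.0961 and -0.105), respiratory chain (-0.152 and -0.161) and collagen, laminin and integrin (0.132 and 0.122) genes. With the covariate the cholinergic (-0.426), meningeal (0.102), endothelial (0.0864) and astrocyte (-0.0102) medians also changed sign, by less than the spread between rats. The histone and DNA modifier median changed sign to 0.0013 with the covariate. Without the 4 libraries the hypothalamic and thalamic (-0.00955), oligodendrocyte (-0.00199) and cytosolic ribosomal protein (0.0402) medians changed sign as well. With at least 10 counts in every library the choroid plexus median was -0.23. Leaving out 1 library turned genes that did not pass: Adk (-0.0349 to 0.0230), Chrnb2 (-0.0768 to 0.0401), Chrna1 (-0.0873 to 0.0196), Adra1d (-0.222 to 0.445), Ier5 (-0.0106 to 0.217) and Oprm1 (-0.0737 to 0.254). The cause of these moves was not tested. With 2 rats per group batch J has little power, and genes under 1 CPM rest on few reads.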
